A study of Mus musculus with 4 samples.

Results

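The genes described are those of the platelet-derived growth factor (PDGF) system, chosen by name: the 4 ligand genes Pdgfa, Pdgfb, Pdgfc and Pdgfd, the 2 receptor genes Pdgfra and Pdgfrb, and the receptor-like gene Pdgfrl, that is, 7 of the 47729 genes in the deposited table. Their RNA was measured in tumors formed by LLC cells, a Lewis lung carcinoma line from C57BL/6 mice, grown under the skin of the back of C57BL/6 hosts and collected on day 5. Control tumors came from cells labelled wild type (LLC), and the others from cells transfected with a pEFIN plasmid for murine chemerin (LLC-Chem), so the groups shared the line, the host strain, the site and the day. Each group was 2 pools of 3 tumors, 6 tumors in all, and pooling leaves no value for a single mouse. The labels call the encoded chemerin full size, whereas the study's text describes a form processed in advance that needs no further cleavage to be active. The methods give the mice as 6 to 10 weeks old unless stated otherwise. The study used individual drug-selected clones, so that a property of the clone cannot be told apart from chemerin itself. The results text of the study also describes cells carrying an empty vector, whereas the labels call the controls wild type.

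PDGFs are secreted dimers that bind receptor tyrosine kinases on mesenchymal cells. PDGF-A and PDGF-C act mainly through PDGF receptor alpha, which marks many fibroblasts, whereas PDGF-B also engages PDGF receptor beta and PDGF-D mainly this second receptor. In growing vessels, endothelial cells release PDGF-B, and pericytes and smooth muscle cells, together called mural cells, carry PDGF receptor beta and are recruited by it. PDGF-C and PDGF-D are released as latent proteins with a CUB domain that extracellular proteases must remove. The question put to these genes is how the ligands and receptors of mesenchymal and mural cells differed between tumors with and without forced expression of chemerin.

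Promoter windows are shown for the members that had the higher RNA in LLC-Chem tumors (Pdgfra and Pdgfc) and for a pair with the lower RNA (Pdgfa and Pdgfd), so that the start sites of the contrasting ligands and the receptor can be compared. Each runs from 250 bases before to 50 bases after a start site of RefSeq (build GRCm38.p6), 5′ to 3′ on the gene's strand, and capitals mark a motif match. Of the 7 members, 4 had an entry in this table. The window of Pdgfra is chr5:75152001-75152300 (plus strand), that of Pdgfc chr3:81036166-81036465 (plus strand), that of Pdgfa chr5:138994895-138995194 (minus strand) and that of Pdgfd chr9:6168236-6168535 (plus strand).
Pdgfra: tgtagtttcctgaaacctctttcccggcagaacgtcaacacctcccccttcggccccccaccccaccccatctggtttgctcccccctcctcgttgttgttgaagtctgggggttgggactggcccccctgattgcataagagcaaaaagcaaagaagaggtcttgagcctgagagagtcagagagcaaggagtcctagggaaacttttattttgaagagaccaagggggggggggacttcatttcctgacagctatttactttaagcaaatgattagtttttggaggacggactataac
Pdgfc: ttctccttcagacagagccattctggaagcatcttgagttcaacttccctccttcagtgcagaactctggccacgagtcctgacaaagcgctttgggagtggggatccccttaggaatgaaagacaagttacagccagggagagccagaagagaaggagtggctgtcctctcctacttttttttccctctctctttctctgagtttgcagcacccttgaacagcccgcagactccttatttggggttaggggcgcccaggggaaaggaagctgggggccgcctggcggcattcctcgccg
Pdgfa: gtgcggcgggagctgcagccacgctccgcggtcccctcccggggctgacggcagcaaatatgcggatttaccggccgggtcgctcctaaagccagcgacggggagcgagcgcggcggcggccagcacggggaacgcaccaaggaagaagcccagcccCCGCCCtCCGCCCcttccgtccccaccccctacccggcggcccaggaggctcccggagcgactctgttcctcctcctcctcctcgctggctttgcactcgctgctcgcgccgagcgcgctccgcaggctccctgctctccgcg
Pdgfd: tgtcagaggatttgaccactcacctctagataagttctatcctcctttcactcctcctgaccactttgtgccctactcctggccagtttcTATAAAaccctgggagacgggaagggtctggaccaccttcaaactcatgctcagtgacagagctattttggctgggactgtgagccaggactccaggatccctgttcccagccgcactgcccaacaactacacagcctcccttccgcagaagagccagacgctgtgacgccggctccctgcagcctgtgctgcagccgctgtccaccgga
The motifs searched on both strands were the GC box (GGGCGG), an EGR1 site (GCGGGGGCG, whose end can overlap a GC box), the TATA box (TATAAA), the CCAAT box (CCAAT) and the core of the hypoxia response element (ACGTG). The printed Pdgfa window held 2 GC boxes, on the opposite strand and starting 93 and 86 bases before the start site, and 73.3% of its bases were G or C. A second Pdgfa window, around another start site, held 1 GC box 60 bases before its start. The Pdgfd window held 1 TATA box 160 bases before its start, with 56.7% G or C. The windows of Pdgfra (51% G or C) and Pdgfc (55% G or C) held none of these motifs. Over 32851 promoter windows of the same length, 35.7% held a GC box, 2.91% the EGR1 site, 13.6% a TATA box, 37.4% a CCAAT box and 19.6% the hypoxia core, and the median share of G or C was 52.7%.

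All 7 members were measured above the filter of a mean of 1 RPM, that is, reads scaled to a fixed total per pool. The fitted depths ran from 28470000 to 33990000 reads per pool. Rarres2, the gene of chemerin, measured 102.2 and 98.2 RPM in LLC and, in those labelled LLC-Chem, 105.9 and 105.8 RPM (log2 difference 0.08, SE 0.09, adjusted p = 0.541, limma), which does not settle the labels. The marker genes of mural, endothelial and macrophage cells and of platelets had summed RPM that were lower in either LLC-Chem pool than in either LLC pool, and those values stand beside the members they touch. In RNA from whole tumors, fewer cells of a type and less RNA per cell cannot be told apart.

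In LLC-Chem tumors, Pdgfra rose 1.62-fold while Pdgfrb fell to 34.8% and Pdgfb to 26.9% of their LLC means. Pdgfc had the higher RNA, and Pdgfa, Pdgfd and Pdgfrl the lower RNA, in both LLC-Chem pools, but none of these 4 passed the test. Of the 7 members, 1 was thus called higher, against 9.54% of the 13694 genes tested, and 2 were called lower, against 13.5%. All 7 had pools that did not overlap between the groups, 2 with both LLC-Chem pools above (33.1% of all genes tested) and 5 with both below (39.3%). The median log2 difference of the members was -0.69, and that of all genes tested was -0.04. Calls rest on limma with Benjamini-Hochberg adjustment over all genes tested, at an adjusted p under 0.05, on log2(RPM + 0.5), a scale that understates the change of weakly expressed genes.

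**Figure D1:**
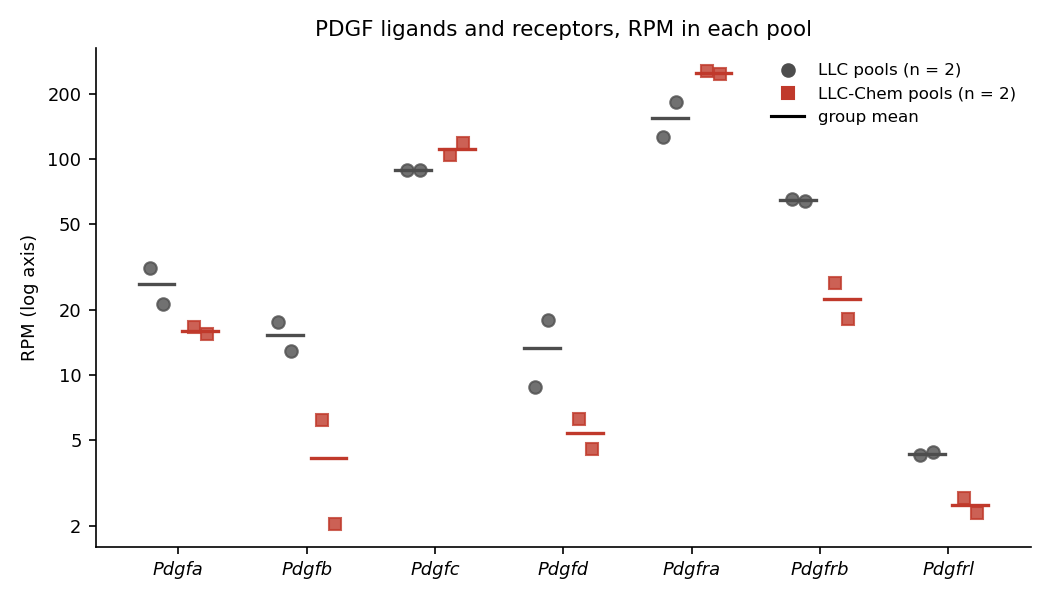
RPM of each PDGF gene (log axis) in each of the 4 tumor pools, with LLC pools as grey circles, LLC-Chem pools as red squares and group means as lines (n = 2 pools per group). Pdgfra and Pdgfc sit higher in both LLC-Chem pools, and the other 5 genes sit lower, with the widest gap between LLC-Chem pools for Pdgfb (6.20 and 2.05 RPM).

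Pdgfb (ENSMUSG00000000489, chromosome 15, 79995874 to 80014977 on the minus strand of GRCm38) encodes the B chain, the ligand of both receptors. It measured 17.6 and 13.0 RPM in LLC and 6.20 and 2.05 RPM in LLC-Chem. Both LLC-Chem pools lay below both LLC pools, with the second LLC-Chem pool lowest. The means were 15.3 ± 3.29 and 4.12 ± 2.93 RPM (SD, n = 2 each). Pdgfb fell by 1.92 on the log2 scale (SE 0.47, adjusted p = 0.0400, limma), or 3.72-fold on the RPM scale. Its reads, recovered from the RPM steps, numbered 68 to 544 per pool, and at 68 reads the counting error alone is 12.1%. Without the second LLC-Chem pool the log2 difference was -1.22, and the call was also lost with edgeR's quasi-likelihood test on recovered reads (adjusted p = 0.0550) and with eBayes without a trend (adjusted p = 0.0624). In limma it was lost when every detected gene was tested (adjusted p = 0.154) and without any 1 of the pools (adjusted p = 0.0548 to 0.188).

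Markers of endothelial cells, the source of PDGF-B in vessels, were also lower. The 10 endothelial markers summed to 264.3 and 204.5 RPM in LLC and to 72.2 and 42.0 RPM in LLC-Chem. Of these, 9 of the 10 were called lower (median log2 difference -2.02), against 13.5% of all genes tested. Cdh5, the vascular cadherin, fell by 2.46 log2 units (adjusted p = 0.0141, limma), and Pecam1, which encodes CD31, fell by 2.08 (adjusted p = 0.0204, limma). The log2 ratio of Pdgfb to the mean of these markers was -0.21 and -0.16 in the LLC pools and 0.19 and -0.48 in the LLC-Chem pools. These ratios overlapped between the groups and differed by 0.04 in the mean (exact permutation test, two-sided, p = 1, where 2 pools against 2 cannot give less than 0.333). The difference turned to -0.29 when the first LLC-Chem pool was left out and was 0.37 when the second was. The platelet and megakaryocyte markers, genes of cells that store PDGF, summed to 407.6 and 382.6 RPM in LLC and to 196.8 and 165.6 RPM in LLC-Chem. Of these, 4 of 5 were tested and 2 were called lower (median log2 difference -0.59), again against 13.5% of all genes tested. Pf4, platelet factor 4, fell by 1.12 log2 units (adjusted p = 0.0126, limma) and Ppbp, another platelet chemokine, fell by 3.44 (adjusted p = 0.0100, limma). Pf4 made up most of the sum, and the list did not move together: of the others tested, named after their values were seen, the integrin gene Itga2b had the higher RPM in both LLC-Chem pools (log2 difference 0.55, not called) and Gp1bb overlapped between the groups (log2 difference -0.07). The 8 macrophage markers summed to 4857 and 8006 RPM in LLC and to 4149 and 2261 RPM in LLC-Chem. The part of endothelial cells, platelets or macrophages in the Pdgfb difference was not tested.

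Pdgfa (ENSMUSG00000025856, chromosome 5, 138976014 to 138997370, minus strand) encodes the A chain, a ligand of PDGF receptor alpha. It measured 31.5 and 21.3 RPM in LLC and 16.7 and 15.5 RPM in LLC-Chem, with means of 26.4 ± 7.21 and 16.1 ± 0.848 RPM (SD, n = 2 each). The LLC pools stood farther from each other than the lower of them from the LLC-Chem pools. The log2 difference of -0.67 (SE 0.21) did not pass the test (adjusted p = 0.0686, limma), and ran from -0.95 (second LLC pool left out) to -0.39 (first left out). Of its exon bases, 26.1% lie under exons of 6330403L08Rik on the plus strand, which measured between 3.60 and 5.45 RPM. Whether the authors counted by strand is not given in the sources used here, and shared reads could then not be assigned to either gene.

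Pdgfc (ENSMUSG00000028019, chromosome 3, 81036416 to 81214040, plus strand) encodes a latent ligand of the alpha receptor. It measured 89.1 and 88.8 RPM in LLC and 104.1 and 119.0 RPM in LLC-Chem, with means of 88.9 ± 0.248 and 111.6 ± 10.5 RPM (SD, n = 2 each). The LLC pools were nearly equal and lay below both LLC-Chem pools. The log2 difference of 0.32 (SE 0.11) did not pass the test (adjusted p = 0.0791, limma), with 2528 to 3991 reads per pool. It was the only ligand with the higher RNA in LLC-Chem pools.

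Pdgfd (ENSMUSG00000032006, chromosome 9, 6168584 to 6378850, plus strand) encodes the latent ligand of the beta receptor. It measured 8.80 and 17.9 RPM in LLC and 6.30 and 4.55 RPM in LLC-Chem, with means of 13.4 ± 6.47 and 5.42 ± 1.24 RPM (SD, n = 2 each). The second LLC pool held more than the other 3 pools, and both LLC-Chem pools were lowest. The log2 difference of -1.16 (SE 0.36) did not pass the test (adjusted p = 0.0678, limma). It was -0.67 without the second LLC pool and -1.65 without the first.

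Pdgfra (ENSMUSG00000029231, chromosome 5, 75152292 to 75198215, plus strand) encodes PDGF receptor alpha. It measured 126.9 and 183.4 RPM in LLC and 255.6 and 247.3 RPM in LLC-Chem. Both LLC-Chem pools stood above both LLC pools and close together, whereas the LLC pools were apart. The means were 155.1 ± 40.0 and 251.4 ± 5.86 RPM (SD, n = 2 each), and Pdgfra rose by 0.72 on the log2 scale (SE 0.18, adjusted p = 0.0450, limma). It was covered by 3914 to 8691 reads per pool, and 6.50% of its exon bases lie under exons of other genes, of which Gm42802 was at 0 in every pool and Gm42803 was at 0 in 3 pools and at 0.0999 RPM in the other. The call was lost with edgeR's quasi-likelihood test (adjusted p = 0.0555), with eBayes without a trend (adjusted p = 0.0764) and with the replicate block in limma (adjusted p = 0.0658). In limma it was also lost when every detected gene was tested (adjusted p = 0.154) and without any 1 of the pools (adjusted p = 0.0771 to 0.270), and without the first LLC pool the log2 difference was 0.45.

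The rise of Pdgfra stood beside a mixed set of fibroblast markers. Their sum was 24485 and 46194 RPM in LLC and 33874 and 30680 RPM in LLC-Chem, so that the groups overlapped. Of 10 markers 0 were called higher and 4 lower (median log2 difference -0.45), beside 9.54% and 13.5% of all genes tested. Postn, the matrix protein periostin, fell by 3.20 log2 units (adjusted p = 0.0091, limma). Col3a1, which encodes type III collagen and had the highest RPM of the list, measured 11581 and 23950 RPM in LLC and 24122 and 22762 RPM in LLC-Chem (adjusted p = 0.540, limma). The log2 ratio of Pdgfra to the mean of the 10 markers was -2.27 and -2.49 in LLC and -1.27 and -1.09 in LLC-Chem. Relative to that mean Pdgfra was thus higher in both LLC-Chem pools, by 1.20 (exact permutation test, two-sided, p = 0.333, the smallest that 2 pools against 2 allow). The mean joins markers that moved in opposite directions, so the ratio does not hold against each marker. Among markers chosen after their values were seen, Col1a1 and Col1a2, the chains of type I collagen, fell by 1.51 (adjusted p = 0.0334, limma) and 1.46 (adjusted p = 0.0383, limma) on the log2 scale. Dcn and Lum, small proteoglycans of fibroblasts, and Dpt were higher in both LLC-Chem pools without passing the test (adjusted p = 0.0753, 0.0776 and 0.0620, limma). Their log2 differences of 0.80, 1.00 and 0.92 were each larger than the 0.72 of Pdgfra.

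Pdgfrb (ENSMUSG00000024620, chromosome 18, 61045150 to 61085061, plus strand) encodes PDGF receptor beta, a receptor of pericytes. It measured 65.4 and 64.0 RPM in LLC and 26.8 and 18.2 RPM in LLC-Chem. The LLC pools were nearly equal, and both LLC-Chem pools lay well below them. The means were 64.7 ± 0.954 and 22.5 ± 6.08 RPM (SD, n = 2 each). Pdgfrb fell by 1.53 on the log2 scale (SE 0.19, adjusted p = 0.0130, limma), or 2.88-fold on the RPM scale, with 610 to 2016 reads per pool and no exon shared with another gene. Among the 7 members its call held under the most alternatives, including edgeR (adjusted p = 0.0164) and DESeq2 (adjusted p = 3.82e-09). It was lost when every gene detected in any pool entered the test (adjusted p = 0.105, limma) and when any 1 pool was left out, where limma called 0 of the 13694 genes (adjusted p for Pdgfrb 0.0548 to 0.148, unadjusted p under 0.05 for 998 to 2359 genes higher and 1580 to 2823 lower).

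Most of the other markers of mural cells were lower as well. The 12 markers summed to 281.1 and 204.5 RPM in LLC and to 86.4 and 56.1 RPM in LLC-Chem. Of the 10 tested, 7 were called lower and 0 higher (median log2 difference -1.42), beside 13.5% and 9.54% of all genes tested. Acta2, smooth muscle actin, measured 73.5 and 71.9 RPM in LLC and 16.2 and 9.54 RPM in LLC-Chem and fell by 2.50 log2 units (adjusted p = 0.0100, limma). Rgs5, a pericyte marker chosen here after its values were seen, measured 73.7 and 43.3 RPM in LLC and 16.2 and 11.7 RPM in LLC-Chem and fell by 1.99 (adjusted p = 0.0150, limma). Notch3, a receptor of mural cells chosen in the same way, measured 13.7 and 10.1 RPM in LLC and 11.9 and 10.1 RPM in LLC-Chem with overlapping pools (adjusted p = 0.737, limma). Kcnj8, also chosen after its values were seen, overlapped as well (log2 difference -0.48, adjusted p = 0.389, limma). The log2 ratio of Pdgfrb to the mean of the mural markers was 2.61 and 3.03 in LLC and 2.52 and 2.52 in LLC-Chem. These ratios did not overlap between the groups, with a difference of -0.30 (exact permutation test, two-sided, p = 0.333, the smallest possible). This difference was -0.15 with a pseudocount of 0.1 RPM (exact permutation test, p = 1), -0.09 without the second LLC pool and -0.51 without the first. Of the fibroblast markers, Col1a1 and Col1a2 fell by 1.51 and 1.46 log2 units, while 3 others were higher in both LLC-Chem pools. The part of mural or fibroblast cells in the Pdgfrb difference was not tested.

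Pdgfrl (ENSMUSG00000031595, chromosome 8, 40926212 to 40990785, plus strand) encodes a receptor-like protein with immunoglobulin domains and no kinase domain. It measured 4.25 and 4.40 RPM in LLC and 2.70 and 2.30 RPM in LLC-Chem, with means of 4.32 ± 0.106 and 2.50 ± 0.283 RPM (SD, n = 2 each). The pools of each group lay close together and the groups did not overlap. The log2 difference of -0.69 (SE 0.20) did not pass the test (adjusted p = 0.0598, limma), at a depth of 77 to 131 reads per pool.

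**Figure D2:**
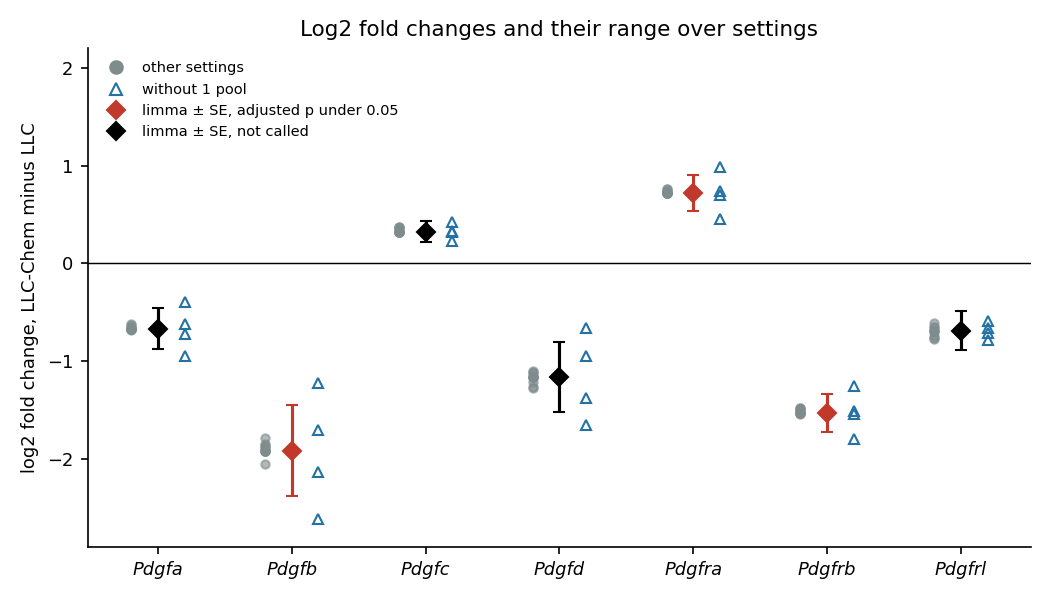
Log2 difference between LLC-Chem and LLC for each PDGF gene, as the limma estimate with its SE (red where the adjusted p was under 0.05), beside the estimates under other settings (grey) and without 1 pool each (blue triangles). No gene crossed 0, which the separate pools of the groups fix in advance when 1 pool is left out. Pdgfb spread most, from -2.62 to -1.22 when 1 pool was left out.

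Levels of different genes were compared as RPM per kb of exon, using the union of each gene's exons in GENCODE M21. In LLC tumors Pdgfc (17.5 and 17.4 RPM per kb) and Pdgfra (12.7 and 18.3) stood highest by the mean, and their pools overlapped. Pdgfrb (11.9 and 11.7) and Pdgfa (10.1 and 6.83) followed without overlapping each other. Next came Pdgfd (2.79 and 5.69) and Pdgfb (4.24 and 3.12), which overlapped, and Pdgfrl (1.36 and 1.41) was lowest. In LLC-Chem tumors Pdgfra came first (25.5 and 24.7 RPM per kb), above Pdgfc (20.5 and 23.4) in both pools. Pdgfa (5.35 and 4.97) then stood above Pdgfrb (4.89 and 3.32), so that their order was the opposite of that in LLC. Pdgfd (2.00 and 1.44) and Pdgfb (1.49 and 0.492) overlapped again, and Pdgfb also overlapped with Pdgfrl (0.863 and 0.735).

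The 4 ligands together made up 34.6 and 33.1 RPM per kb in LLC and 29.3 and 30.3 RPM per kb in LLC-Chem. Within this sum, Pdgfc had a share of 50.6% and 52.7% in LLC and of 69.8% and 77.2% in LLC-Chem. The shares of Pdgfa (29.1% and 20.6% against 18.3% and 16.4%), Pdgfb (12.2% and 9.44% against 5.08% and 1.63%) and Pdgfd (8.05% and 17.2% against 6.81% and 4.76%) were lower in both LLC-Chem pools. The 2 receptors summed to 24.6 and 30.0 RPM per kb in LLC and to 30.4 and 28.0 in LLC-Chem, which overlapped. Pdgfra held 51.5% and 61.0% of that receptor sum in LLC and 83.9% and 88.1% in LLC-Chem. The receptor sums thus overlapped between the groups, while the shares within them did not. That the shares of Pdgfra and Pdgfc did not overlap follows from the separate pools of the single genes and is no further result.

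**Figure D3:**
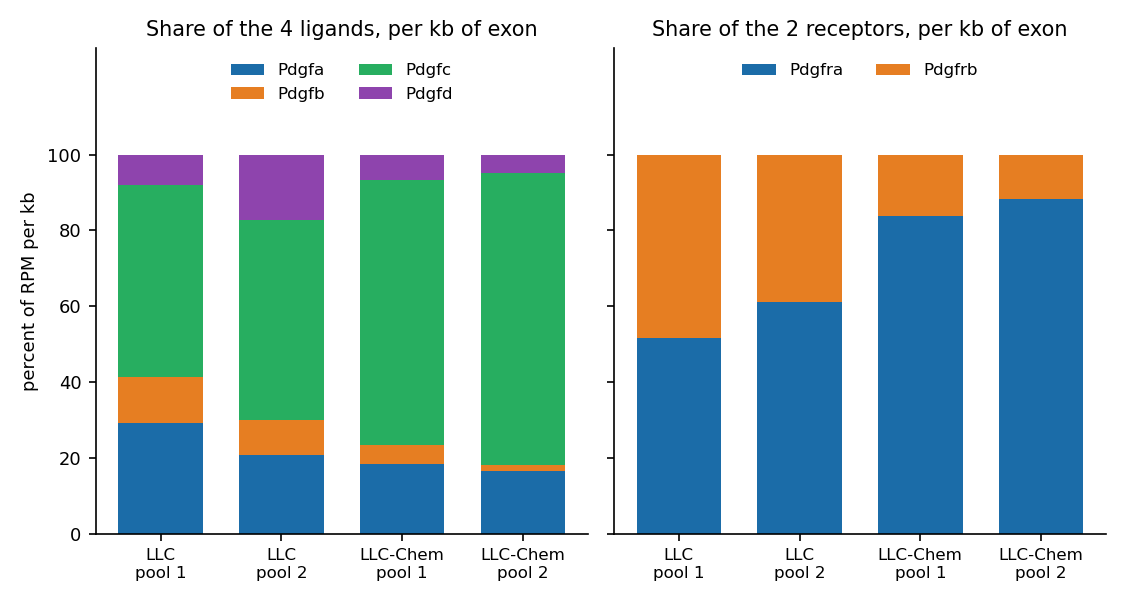
Percent of the RPM per kb of exon of the 4 ligands (left) and of the 2 receptors (right) that each gene holds, in each of the 4 pools. Pdgfc grew from a mean share of 51.6% to 73.5% of the ligands, and Pdgfra from 56.2% to 86.0% of the receptors.

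Apart from the added 0.5 RPM, ratios within a pool do not depend on how the pool was scaled. The log2 ratio of Pdgfra to Pdgfrb was 0.95 and 1.51 in LLC and 3.23 and 3.73 in LLC-Chem, a difference of 2.25 (exact permutation test, two-sided, p = 0.333, the smallest possible). All 4 pools had more Pdgfra than Pdgfrb. The ratios of the groups did not overlap, which follows from the separate pools of each gene. For the ligand and receptor of the alpha axis, the log2 ratio of Pdgfa to Pdgfra was -1.99 and -3.08 in LLC and -3.90 and -3.95 in LLC-Chem. It was lower in both LLC-Chem pools, which again follows from the separate pools of each gene. The mean difference was -1.39 (exact permutation test, two-sided, p = 0.333), and it was -0.85 without the first LLC pool. For the axis of vessels, the log2 ratio of Pdgfb to Pdgfrb was -1.86 and -2.26 in LLC and -2.03 and -2.87 in LLC-Chem, with overlapping pools (difference -0.39, exact permutation test, two-sided, p = 0.667). This difference was -0.82 when the first LLC-Chem pool was left out and turned to 0.032 when the second was.

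**Figure D4:**
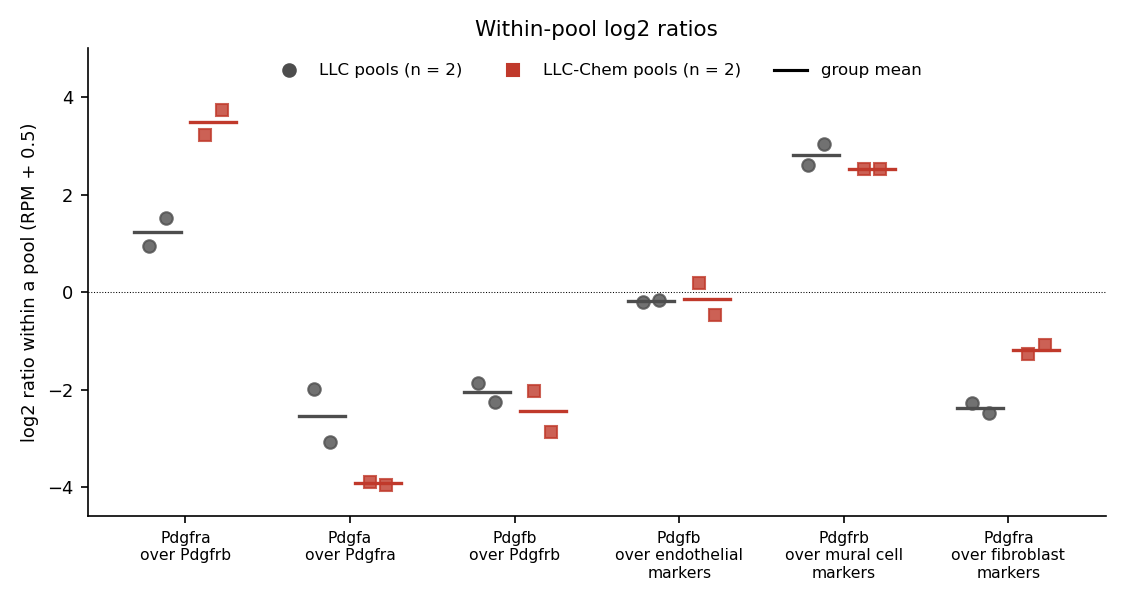
Log2 ratios within a pool, computed from RPM + 0.5, with LLC pools as grey circles, LLC-Chem pools as red squares and lines for group means (n = 2 pools per group). Pdgfra over Pdgfrb and Pdgfra over the mean of the fibroblast markers are higher in both LLC-Chem pools, though the fibroblast markers themselves moved in both directions. Pdgfb over Pdgfrb and Pdgfb over endothelial markers overlap between the groups.

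The list of 14 genes that act with the PDGFs outside the cell holds activating proteases, co-receptors and binding proteins, of which 12 were tested, 0 were called higher and 2 lower (median log2 difference -0.40), beside 9.54% and 13.5% of all genes tested. Sparc, a matrix protein that binds PDGF-B, measured 3245 and 5314 RPM in LLC and 1999 and 1780 RPM in LLC-Chem and fell by 1.14 log2 units (adjusted p = 0.0447, limma). Plau, the urokinase protease that can activate PDGF-D, measured 198.9 and 176.7 RPM in LLC and 135.1 and 104.7 RPM in LLC-Chem and fell by 0.65 (adjusted p = 0.0359, limma).

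Inside the cell, the 33 receptor signalling genes were all tested, with 3 called higher, 4 called lower and a median log2 difference of -0.03, counts and a median near those of all genes tested (9.54% higher, 13.5% lower, median -0.04). Pik3r1, a regulatory subunit of phosphoinositide 3-kinase, went from 51.8 and 56.3 RPM to 98.5 and 118.5 RPM and rose by 0.99 log2 units (adjusted p = 0.0132, limma). Plcg1, a phospholipase that docks on the receptors, rose by 0.65 (adjusted p = 0.0159, limma), and Pik3r2, another such regulatory subunit, rose by 0.61 (adjusted p = 0.0389, limma). The genes that fell were Fyn, a kinase of the Src family, by 0.53 (adjusted p = 0.0325, limma), Pik3cb, a catalytic subunit of the same lipid kinase, by 0.51 (adjusted p = 0.0498, limma), the kinase Akt1 by 0.50 (adjusted p = 0.0378, limma) and the adaptor Grb2 by 0.43 (adjusted p = 0.0472, limma).

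Of 16 listed and tested genes that restrain receptor signalling, 3 were called higher and 2 lower (median log2 difference -0.09), against 9.54% and 13.5% of all genes tested. Spry1, a Sprouty inhibitor of receptor tyrosine kinase signalling, went from 5.20 and 5.10 RPM to 23.1 and 21.8 RPM and rose by 2.02 log2 units (adjusted p = 0.0067, limma). Its relative Spry2 went from 39.8 and 40.9 RPM to 108.7 and 100.3 RPM and rose by 1.36 (adjusted p = 0.0067, limma). Lrig1, a transmembrane inhibitor of growth factor receptors, went from 217.8 and 204.0 RPM to 410.2 and 401.8 RPM and rose by 0.94 (adjusted p = 0.0116, limma). The phosphatases Ptprj and Ptpn1, which act on PDGF receptors, fell by 0.78 (adjusted p = 0.0397, limma) and 0.73 (adjusted p = 0.0245, limma).

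Of 17 genes known to be induced by growth factors, 0 were called higher and 3 lower, with a median log2 difference of 0.00, where all genes tested had 9.54% higher and 13.5% lower. These were Odc1, the first enzyme of polyamine synthesis, which fell by 0.77 (adjusted p = 0.0473, limma), the urokinase receptor Plaur, which fell by 0.68 (adjusted p = 0.0447, limma), and the early gene Ier2, which fell by 0.50 (adjusted p = 0.0371, limma). Many stimuli other than PDGF induce the genes of this list.

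Of 15 ligands and receptors related to the PDGF system, 2 were called higher and 4 lower (median log2 difference -0.01), beside the same shares of 9.54% and 13.5% over all genes. Vegfc, a lymphatic growth factor, went from 9.00 and 7.45 RPM to 37.0 and 39.4 RPM and rose by 2.16 log2 units (adjusted p = 0.0067, limma). Vegfb rose by 0.42 (adjusted p = 0.0463, limma). The endothelial receptors Kdr and Flt4 fell by 2.10 (adjusted p = 0.0093, limma) and 1.72 (adjusted p = 0.0382, limma), and the receptors of blood cells Csf1r and Flt3 fell by 1.50 (adjusted p = 0.0490, limma) and 0.82 (adjusted p = 0.0260, limma). Csf1r is also in the macrophage list, whose 8 genes summed to 4857 and 8006 RPM in LLC and to 4149 and 2261 RPM in LLC-Chem, with 0 called higher and 2 lower (median log2 difference -0.94). Of that list Aif1 fell by 2.09 (adjusted p = 0.0067, limma), and Lyz2, with the highest RPM, measured 2596 and 5162 RPM in LLC and 2229 and 1030 RPM in LLC-Chem (adjusted p = 0.106, limma).

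**Figure D5:**
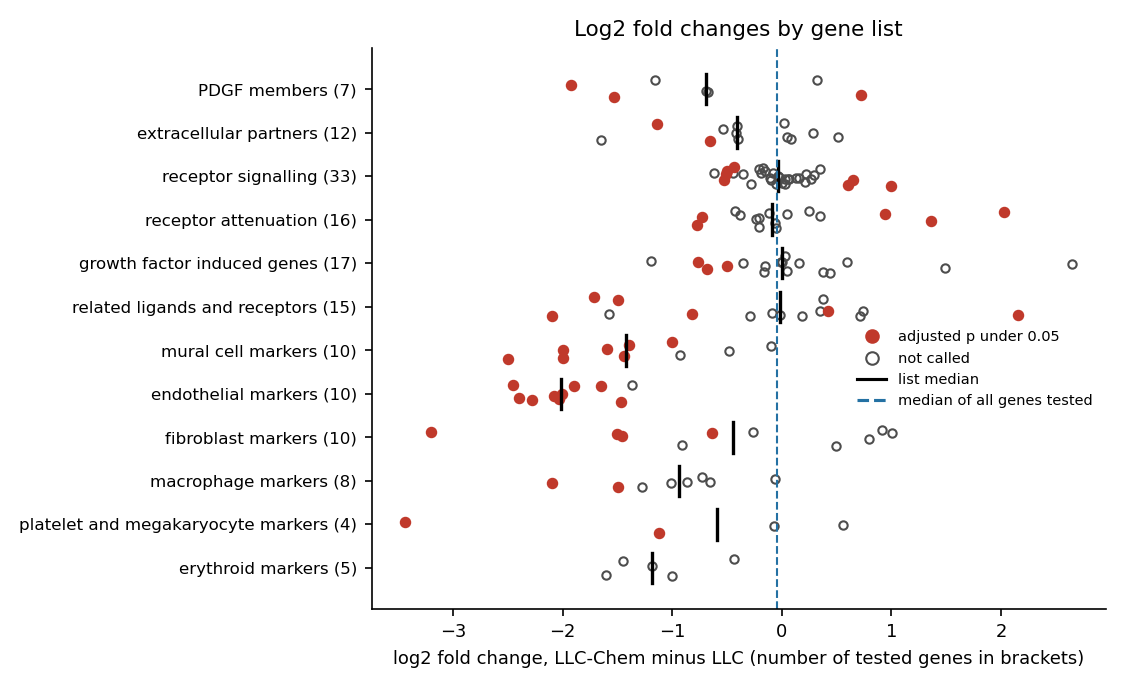
Log2 difference between LLC-Chem and LLC of each tested gene (points, filled red where limma's adjusted p was under 0.05) by list, for lists with more than 3 tested genes, with the list median as a black bar and the median of all genes tested as a dashed line at -0.04. Mural and endothelial markers lie mainly below 0 (medians -1.42 and -2.02), whereas the signalling lists centre near 0.

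For each member the 3 tested genes with the most similar pattern were found by the root mean square difference of log2(RPM + 0.5), centred on each gene's mean, over the 4 pools. With so few pools, close neighbours are found for most genes, and these values are a description. Nearest to Pdgfb were Clec4e, a C-type lectin of myeloid cells, at 0.051, then Bcl6b, a transcriptional repressor, at 0.11 and Slc15a3, a peptide transporter, at 0.11. Nearest to Pdgfrb were Aim1 (0.024), the mast cell gene Milr1 (0.027) and the Wnt receptor Fzd1 (0.028). Nearest to Pdgfra were the planar polarity gene Vangl2 (0.032), Gm8066 (0.040) and the transcription factor Pou6f1 (0.040). Among the ligands, Pdgfa had Daxx (0.018), Gm4430 (0.028) and Plaur (0.032), Pdgfc had Cwf19l2 (0.0042), Kdm5a (0.011) and B230354K17Rik (0.014), and Pdgfd had the homeobox gene Hoxc9 (0.043), Kcnn3 (0.049) and Vgll3 (0.052). Pdgfrl had Lrrc8b (0.0090), Fam69a (0.015) and Tmsb4x, which encodes thymosin beta 4, at 0.016.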

How the data were processed

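RNA from tumor pools was extracted with TRIzol and a column kit, and libraries were made with a TruSeq RNA kit and sequenced on an Illumina HiSeq. The authors aligned the read pairs with STAR (GRCm38), assigned them to Ensembl genes with HTSeq, and deposited RPM values for 47729 genes. Tool versions and the strand setting are not given in the sources used here. The deposited RPM are whole steps, from which the total of each library was estimated to the nearest 1000 reads. All (100%) of the low values were whole steps within 0.1 step, and reads were recovered from the steps with these totals. Intervals and floors on reads cover counting error only.

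Group differences in log2(RPM + 0.5) were fitted in R 4.3.3 with limma 3.58.1 (two-sided; eBayes with a mean trend). Genes averaging 1 RPM or more (13694) were kept, their p-values were adjusted after Benjamini-Hochberg, and calls were made at an adjusted p under 0.05. The p-values rest on the spread between pools, which eBayes draws toward that of genes of like level, so part of each variance comes from other genes. Nothing in the labels ties the pools to separate experiments. Single ratios were compared by exact permutation tests. The fit was tested on simulated data. Alternatives were pseudocounts of 0.1 and 1 RPM, TMM and median-of-ratios scaling, other filters, a replicate block, eBayes without trend, leaving out each pool, and edgeR 4.0.16 (quasi-likelihood) and DESeq2 1.42.0 on recovered reads. The block with crossed numbers was added after seeing the data.

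The members and lists were chosen with earlier results of these data known. The lists cover extracellular partners, signalling, attenuation, induced genes, related ligands and receptors, and cell type markers. From pathway lists up to 4 called genes per direction with the largest change are named, from marker lists the gene of highest RPM and that of lowest adjusted p, for each member the 3 nearest genes, and Rarres2. Coordinates and exon lengths are from GENCODE M21 (GRCm38), which holds 47224 (98.9%) of the identifiers. Python 3.11.15, numpy 2.4.6, pandas 2.3.3, scipy 1.17.1 and matplotlib 3.10.9 were used.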

Additional observations from a re-analysis of the deposited data

How the results depend on the processing

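Each member kept its direction under the alternatives that tested it (Pdgfrl was below the filter of a mean of at least 5 RPM). For most settings this was fixed in advance. The pools of each member did not overlap between the groups, so leaving out 1 pool could not turn its sign. The filters, the blocks and the trend setting leave the log2 difference itself unchanged. Pdgfra was called higher in limma, and 0 members were called higher with all genes above 0 tested, with the replicate block, without a trend or with edgeR (unadjusted p under 0.05 for 1 or 2 members). Of members called lower, 2 in limma, 0 remained called with all genes above 0 tested (4 at an unadjusted p under 0.05), 1 with edgeR (Pdgfrb) and 4 with DESeq2 (Pdgfa, Pdgfb, Pdgfd and Pdgfrb). Without a trend the 2 were Pdgfrb and Pdgfrl. Leaving out any 1 pool gave 0 calls in limma for members and lists in each direction, where the lone pool is assumed to vary like the other group. At an unadjusted p under 0.05 there were then 0 to 1 members higher and 2 to 4 lower.

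The 5 pathway lists had 8 genes called higher and 15 lower in limma. With all genes above 0 tested both counts were 0 (14 and 21 at an unadjusted p under 0.05), and the lower count was 7 with the replicate block, 3 without a trend and 9 with edgeR. The marker lists had 2 higher and 24 lower. The higher count was 1 with a pseudocount of 1 RPM, the replicate block or no trend, 0 with a mean of at least 5 RPM, and 5 with DESeq2 or crossed numbers, and both counts were 0 with all genes above 0 tested (2 and 26 unadjusted). Over all genes, limma called 1306 higher and 1848 lower, against 1 and 0 of 26260 with all genes above 0 tested (3394 and 4003 unadjusted), 891 and 1271 without a trend, 1551 and 1600 with edgeR, and 1876 and 2271 with DESeq2.

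The replicate numbers did not pair the pools (correlation of deviations -0.14), and the replicate block gave 549 higher and 1064 lower calls over all genes. With the numbers crossed, a fit added after seeing the data, there were 1579 higher and 2320 lower calls. TMM and median-of-ratios scaling moved the median of all genes by 0.045 and 0.036 on the log2 scale and changed the call of no member. The Pdgfb to Pdgfrb log2 ratio difference ran from -0.82 to 0.032 when 1 pool was left out, positive without the second LLC-Chem pool. The ratio difference of Pdgfb to the endothelial markers ran from -0.29 to 0.37, negative without the first LLC-Chem pool. The cause of these changes was not tested. The lowest read count of a member was 68, for Pdgfb, so depth limited it more than Pdgfra or Pdgfc.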

Other observations

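Markers of muscle, skin and fat, the tissues around a graft in the back, were low in sum. The 5 skeletal muscle markers summed to 2.35 and 3.10 RPM in LLC and to 4.15 and 5.35 RPM in LLC-Chem. Ckm and Myh4 were at 0 in every pool, and Tnnt3, the 1 gene tested, rose by 1.21 log2 units (adjusted p = 0.0419, limma). The 4 keratinocyte markers summed to 2.90 and 4.45 RPM in LLC and to 2.10 and 2.10 RPM in LLC-Chem, and the tested gene Krt10 did not pass (adjusted p = 0.109, limma). The 5 adipocyte markers summed to 28.1 and 20.1 RPM in LLC and to 39.9 and 14.3 RPM in LLC-Chem. Of the 3 tested, beside a share of 9.54% over all genes tested, 1 was called higher (median log2 difference 0.87). That gene was Cfd, adipsin, at 1.40 and 1.40 RPM in LLC and 15.1 and 4.10 RPM in LLC-Chem (log2 difference 2.16, adjusted p = 0.0466, limma). Fabp4, the adipocyte marker of highest RPM, did not pass (adjusted p = 0.231, limma).

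Erythroid genes differed widely between pools of the same group. Their 5 genes summed to 114.9 and 46.1 RPM in LLC and to 143.2 and 4.25 RPM in LLC-Chem, and 0 were called (median log2 difference -1.18). Hbb-bs, a beta globin, measured 53.7 and 19.7 RPM in LLC and 74.3 and 2.35 RPM in LLC-Chem (adjusted p = 0.573, limma), and Hba-a1, an alpha globin, measured 34.4 and 15.1 RPM in LLC and 38.7 and 1.00 RPM in LLC-Chem (adjusted p = 0.437, limma). The second LLC-Chem pool, lowest in these genes, was also the lowest in Pdgfa, Pdgfb, Pdgfd, Pdgfrb and Pdgfrl, and in the summed endothelial and mural markers. Cmklr1, a receptor of chemerin, measured 38.8 and 56.2 RPM in LLC and 21.7 and 11.7 RPM in LLC-Chem and fell by 1.52 log2 units (adjusted p = 0.0307, limma).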
